A study of Caenorhabditis elegans with 2 samples.

Results

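The genes described here carry signals that pattern the vulva of the nematode Caenorhabditis elegans, or act in or mark the vulval lineages. They include the ligand genes lin-3 and lag-2, the receptor genes let-23 and lin-12, and the Ras gene let-60. The others are the transcription factor genes lin-1, lin-31, lin-11 and cog-1, and the growth factor gene egl-17. The genes were taken by name, and all 10 were found among the 19973 protein-coding genes of the nuclear chromosomes. Chromatin immunoprecipitation followed by sequencing mapped UNC-62, the MEIS family homeodomain protein of the worm, in whole L2 larvae of strain OP600. The strain has the unc119(ed3) allele and the integrated transgene wgIs600, in which unc-62 is joined to TY1, EGFP and FLAG tags and accompanied by unc119. The tagged protein is therefore made from an added gene copy. The only group held 2 biological replicates, described as pooled males and females. No second condition or stage was compared, so binding at later larval stages was not examined. Vulval precursor cells are a small part of a whole larva, and the peak lists hold no expression values from which a cell type could be checked.

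In the worm, the anchor cell of the gonad secretes the EGF-like protein LIN-3, which activates the receptor LET-23 and then the Ras protein LET-60 in the nearest vulval precursor cell. That cell takes the primary fate and signals to its neighbours, which take the secondary fate through the Notch receptor LIN-12. LIN-12 and its ligand LAG-2 also act earlier, when a pair of gonadal cells decides which becomes the anchor cell.

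The deposited lists rank peaks by a signal value made against a control. Reproducible peaks passed the authors' irreproducible discovery rate (IDR) procedure. There were 414 of them, the lowest with a signal of 28.2, and they were also the 414 highest of the 28005 pooled candidates. Not all of them ranked high in both replicates: the peak near lin-53 ranked 213 in replicate 1 and 7492 in replicate 2. Each replicate had its own list of 30000 candidates, on another signal scale, so signals are compared only within a list. The pooled list is labelled as peaks and background given as input to IDR. A pooled candidate outside the reproducible set may therefore be background. A site absent from a replicate's list may lie below the end of that list. Read depth is unknown. A gene's window was the gene with 5000 bp on each side, on build ce11, and a peak belonged to the window that held its summit.

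UNC-62 had a reproducible peak in the window of 1 of the 10 genes, lin-3. Among all protein-coding genes 4.94% had one. The lin-3 peak lay 4774 bp past the 3' end of the gene, and no reproducible peak lay inside any of the 10 genes or within 5000 bp upstream of one. In the top 414 of replicate 1, as in the top 414 of replicate 2, lin-3 was also the only one of the 10 genes with a peak, beside 4.82% and 4.81% of all genes. Extending the limit to the top 1000 pooled candidates added none of the other genes, while 11% of all genes had such a candidate. After the lin-3 peak, the strongest candidate in any of the 10 windows had a signal of 17.2 and rank 1478, well under the lowest reproducible signal.

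Below that threshold every one of the 10 windows held pooled candidates, from 3 at lin-31 and lin-11 to 9 at lin-12. This is the usual state of a gene here, since 94.9% of protein-coding genes had at least 1. The 10 windows held 52 candidates, with a median signal of 10.3, against 9.02 over the pooled list. Of the 52, 21 had ranks 1 to 7001, 15 had ranks 7002 to 14002, 5 had ranks 14003 to 21003 and 11 were below these. These 4 bands divide the whole pooled list into parts of nearly equal size. They held 40.4%, 28.8%, 9.62% and 21.2% of the 52. The median density was 0.312 candidates per kb in the 10 windows and 0.264 per kb over all genes. It ran from 0.116 per kb at lin-1, the longest gene, to 0.622 per kb at let-60, which 2.55% of all windows exceeded.

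**Figure D1:**
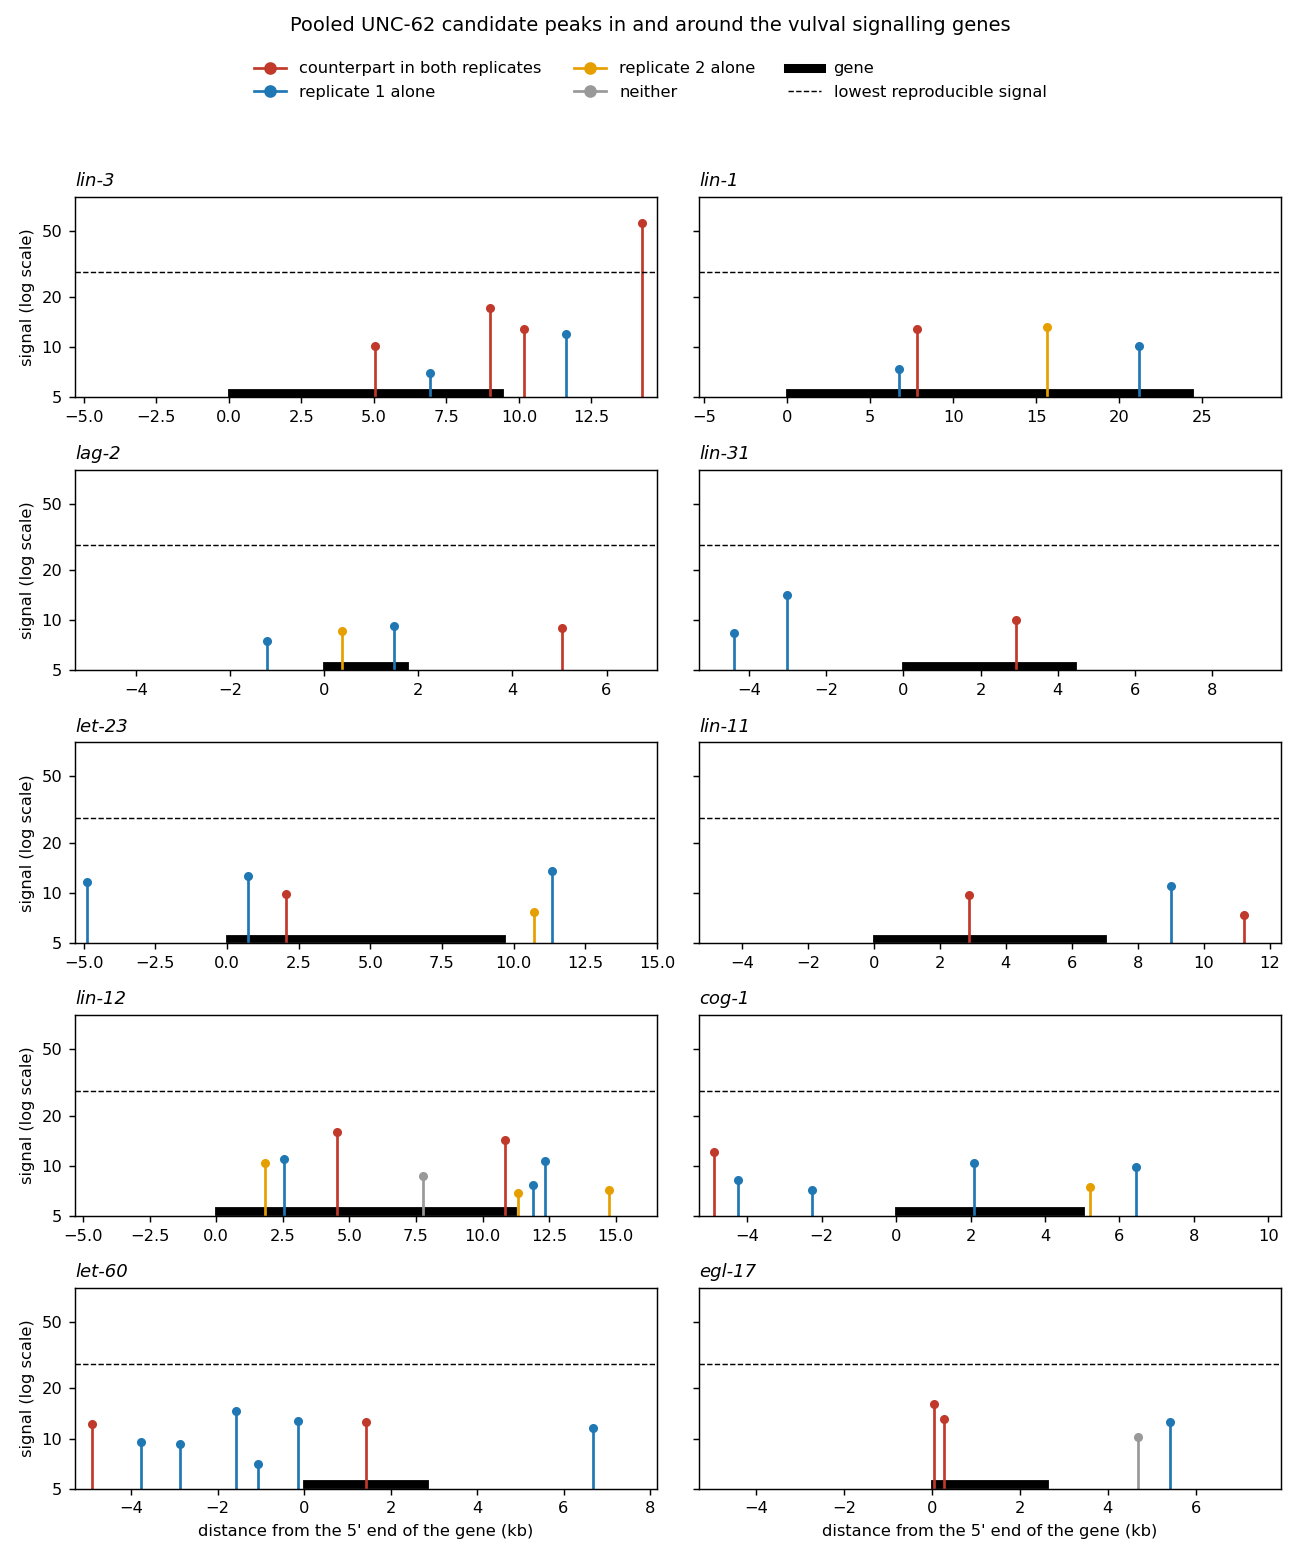
Pooled candidates in the 10 windows. Each stem is 1 candidate, placed by its distance in kb from the 5' end of the gene (x axis, gene read left to right) and reaching up to its signal (y axis, log scale). Colours show which replicates had an overlapping candidate, the black bar is the gene, and the dashed line is the lowest reproducible signal of 28.2. The lin-3 peak at 14234 bp is the only stem above the line.

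The lin-3 gene, for the inductive ligand, lies at chromosome IV 11054308 to 11063768 on the plus strand and has 11 annotated transcripts with 7 different 5' ends. Its reproducible peak had a signal of 55.4 and rank 87 in the pooled list. The overlapping candidate had a signal of 20.6 and rank 342 in replicate 1, and a signal of 25.4 and rank 48 in replicate 2. The summits of the replicates were 44 bp apart, so both libraries placed their strongest signal of the lin-3 window at the same site. The summit was intergenic, and the nearest protein-coding 5' end was that of ttr-17, a transthyretin-related gene, 1516 bp away. A pseudogene, WBGene00012384, started 845 bp from the summit. The peak therefore also counted for the windows of ttr-16 and ttr-17, and which gene it acts on, if any, was not tested.

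The sequence of 100 bp on each side of this summit is shown because it holds 2 copies of TGACAG, the core recognised by MEIS proteins, on opposite strands. Capitals mark these and a GAGAGA match, and bases are given on the plus strand of chrIV:11068442-11068642.

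lin-3 downstream peak: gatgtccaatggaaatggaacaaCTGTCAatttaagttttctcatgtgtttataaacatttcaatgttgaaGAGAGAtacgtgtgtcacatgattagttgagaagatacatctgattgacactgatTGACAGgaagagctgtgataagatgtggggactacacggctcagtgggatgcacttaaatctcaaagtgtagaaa

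The copies began 77 bp before and 26 bp after the summit. Among all pooled candidates 0.379% held at least 2 copies within 100 bp of the summit, and among the 414 reproducible peaks 1.21% did (5 peaks). The lin-3 peak was the only one of the 52 candidates to do so.

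The other 5 candidates of lin-3 were far weaker. The strongest of them lay in the 3' UTR of lin-3, with a signal of 17.2 and rank 1478, and its counterpart ranked 821 in replicate 1 and 13173 in replicate 2. An intronic candidate 61 bp inside a downstream transcript start of lin-3 had a signal of 10.2 and rank 9623. Both replicates had counterparts of it, at rank 17481 of 30000 in replicate 1 and 26292 of 30000 in replicate 2. No pooled candidate lay in the 5000 bp upstream of lin-3. Replicate 2 alone listed a peak 2815 bp upstream, with a signal of 7.16 and rank 3267, that overlapped no pooled candidate. Replicate 1 alone listed one 2196 bp upstream of lin-3, at rank 28179. At the start of lin-3 a replicate 2 peak 47 bp upstream (rank 29501) overlapped a replicate 1 peak 241 bp inside the gene (rank 27899). The start of lin-3 was thus listed in both replicates, among the lowest peaks of each, and not in the pooled list.

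The other ligand gene, lag-2, had the weakest window. Its gene lies at chromosome V 3188343 to 3190115. Its 4 candidates had signals from 7.51 to 9.17, and the best rank was 13322 in the pooled list, 10521 in replicate 1 and 17837 in replicate 2. Of all protein-coding windows 77.6% had a better best pooled rank. The strongest candidate lay in a coding exon, 1475 bp from the 5' end, and had no counterpart in replicate 2. A candidate 1215 bp upstream had a signal of 7.51 and was present in replicate 1 but not in replicate 2. Only 1 of the 4 had counterparts in both replicates, at ranks 23503 in replicate 1 and 26457 in replicate 2. It had a signal of 8.91 and lay 3285 bp past the 3' end, 158 bp from the 5' end of Y73C8B.9. The lag-2 exon candidate also held TGACAG, 8 to 13 bp from the summit, and is shown to set beside lin-3 a weak candidate with the same letters. Capitals mark that match and overlapping GAGAGA matches on the minus strand, and the bases are from the plus strand of chrV:3189718-3189918.

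lag-2 exon candidate: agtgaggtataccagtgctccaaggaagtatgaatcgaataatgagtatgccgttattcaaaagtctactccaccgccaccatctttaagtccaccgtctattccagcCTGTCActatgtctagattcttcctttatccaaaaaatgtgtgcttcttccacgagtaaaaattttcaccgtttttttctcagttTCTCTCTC

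The receptor gene lin-12 had 9 candidates, the most of the 10 genes, but no pooled one upstream of its 5' end (chromosome III 9060221 to 9071472, minus strand). Replicate 1 alone listed 3 peaks upstream of lin-12, at 2336 bp (rank 6830), 2802 bp (rank 24476) and 3005 bp (rank 14652). Of the 9 pooled candidates, 5 lay in the gene and 4 in or beside its downstream neighbours gst-1 and cls-2. The strongest was intronic, 4538 bp from the 5' end, with a signal of 15.9 and rank 1949 in the pooled list. Its counterparts ranked 5527 in replicate 1 and 15063 in replicate 2, so neither replicate listed it near its top. A further intronic candidate, near the 3' end at 10828 bp, had a signal of 14.4 and rank 2760. The 4 candidates beyond the 3' end had signals from 6.89 to 10.7. The strongest lin-12 candidate held none of the 3 motifs searched and is shown from the plus strand of chrIII:9066834-9067034.

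lin-12 intronic candidate: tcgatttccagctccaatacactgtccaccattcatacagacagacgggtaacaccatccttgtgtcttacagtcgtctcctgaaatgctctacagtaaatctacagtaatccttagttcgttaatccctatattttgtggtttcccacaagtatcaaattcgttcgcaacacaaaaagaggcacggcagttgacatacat

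Reproducible peaks did occur farther from lin-12. One with a signal of 49.7 and rank 108 lay 6175 bp past its 3' end, 256 bp from the 5' end of R107.5, and ranked 131 in replicate 1 and 64 in replicate 2. Another with a signal of 28.2 and rank 414, the last of the reproducible set, lay 8856 bp past the 3' end and nearest to ikke-1. The window limit thus decides the count: the lin-3 peak at 4774 bp lay just inside it and the lin-12 peak at 6175 bp just outside. Other candidates inside the limit were at 4869 bp from let-23 (signal 11.6), 4893 bp from cog-1 (12.1) and 4907 bp from let-60 (12.3). Those next outside were at 5140 bp from lag-2 (12.8) and 5161 bp from lin-31 (6.92).

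The EGF receptor gene let-23 (chromosome II 9197512 to 9207213) had 5 candidates with signals from 7.63 to 13.5. The best rank was 3441 in the pooled list, 2401 in replicate 1 and 7287 in replicate 2. That strongest candidate lay 1644 bp past the 3' end, with a counterpart in replicate 1 and none in replicate 2. A candidate 746 bp inside the gene, 1 bp from the 5' end of an inner let-23 transcript, had a signal of 12.6 and rank 4452, and ranked 8024 in replicate 1 with no counterpart in replicate 2. The promoter candidate of let-23 was thus listed in 1 of the 2 libraries. Upstream of let-23, a replicate 1 peak at 1312 bp (rank 20022) overlapped a replicate 2 peak at 987 bp (rank 21048), and neither was in the pooled list.

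The Ras gene let-60, which relays the receptor's signal, had the most pooled candidates per kb of the 10 genes. It lies at chromosome IV 11688227 to 11691088 on the minus strand, and 6 of its 8 candidates were upstream. All 8 had a counterpart in replicate 1 and 2 had one in replicate 2. The strongest of the let-60 window, upstream and 1135 bp from the 5' end of ZK792.12, had a signal of 14.7 and rank 2574 in the pooled list but rank 21255 in replicate 1 and no counterpart in replicate 2. Closer to the gene, a candidate 141 bp upstream of its 5' end had a signal of 12.8 and rank 4220, and its replicate 1 counterpart ranked 2765. Upstream of let-60 lie the protein-coding genes ZK792.12 and ZK792.7, and 4 of the 6 upstream candidates were nearer to a 5' end of one of these. The non-coding RNA gene ZK792.10 lay within 500 bp of the strongest candidate and of the candidate at rank 25640. The strongest let-60 candidate is shown because a GAGAGA match (capitals) ends at its summit, from the plus strand of chrIV:11692558-11692758.

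let-60 upstream candidate: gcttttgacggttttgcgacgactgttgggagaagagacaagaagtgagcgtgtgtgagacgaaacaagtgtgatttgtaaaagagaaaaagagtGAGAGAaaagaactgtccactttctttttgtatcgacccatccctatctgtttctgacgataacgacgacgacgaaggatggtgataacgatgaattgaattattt

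The egl-17 gene encodes a fibroblast growth factor and is widely used as a marker of the primary vulval lineage. It lies at chromosome X 489685 to 492318 on the plus strand. Its best pooled candidate had a signal of 16.1 and rank 1853, the highest of the 10 genes after lin-3, and its summit was 48 bp inside the gene. A second summit followed 224 bp farther on, with a signal of 13.1 and rank 3953, and the peaks shared 112 bp. The same candidate was the best counterpart of both peaks in each replicate, at rank 13992 in replicate 1 and 2225 in replicate 2. Replicate 2 also had a weaker candidate there, at rank 21648. The egl-17 start was thus ranked much higher in replicate 2 than in replicate 1.

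A tRNA gene, WBGene00023035, lies inside egl-17 on the opposite strand (chromosome X 489868 to 489939). Its nearest end was 135 bp from the first egl-17 summit and 18 bp from the second. The only TGACAG match at the egl-17 start lay within that tRNA gene. Whether the tRNA gene plays a part in the signal was not tested. Both sequences are shown from the plus strand, with matches to TGACAG and GAGAGA in capitals, of chrX:489633-489833 and chrX:489857-490057, and the first has no match to the 3 motifs.

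egl-17 first candidate: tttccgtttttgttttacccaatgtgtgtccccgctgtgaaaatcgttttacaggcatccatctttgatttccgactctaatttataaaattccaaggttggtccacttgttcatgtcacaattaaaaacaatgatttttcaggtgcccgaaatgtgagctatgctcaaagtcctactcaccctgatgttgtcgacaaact

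egl-17 second candidate: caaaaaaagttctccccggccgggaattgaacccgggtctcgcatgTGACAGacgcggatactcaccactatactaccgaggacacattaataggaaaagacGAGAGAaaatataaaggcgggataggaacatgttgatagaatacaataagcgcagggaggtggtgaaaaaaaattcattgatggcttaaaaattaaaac

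Farther on, egl-17 had a candidate in a coding exon of the next gene, B0310.1, with a signal of 12.7. It ranked 1280 in replicate 1, the best rank of the egl-17 window in that library, and had no counterpart in replicate 2. An intronic B0310.1 candidate with a signal of 10.2 had a counterpart in neither replicate.

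Among the transcription factor genes the best pooled rank was 3011, at lin-31. The ETS factor gene lin-1, a nuclear target of Ras signalling, spans chromosome IV 2275861 to 2300286 on the minus strand. All 4 of its pooled candidates lay within the gene, and none was within 1000 bp of the 5' end of the gene. Replicate 1 alone listed peaks 298, 2112 and 4614 bp upstream of lin-1, at ranks 12222, 8461 and 15186, and replicate 2 alone 1 at 3673 bp, at rank 16894. The strongest was intronic, 15629 bp from the 5' end, with a signal of 13.3 and rank 3694; it ranked 3187 in replicate 2 and was absent from replicate 1. The next, intronic at 7826 bp with a signal of 12.8, was in both, at ranks 2379 in replicate 1 and 8434 in replicate 2. A coding exon candidate 89 bp inside an inner transcript start had a signal of 10.2 and ranked 2099 in replicate 1 alone.

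The forkhead factor gene lin-31, a partner of lin-1 in the vulval precursor cells, had 3 candidates (chromosome II 3982549 to 3987029). The strongest lay 3023 bp upstream, with a signal of 14.1 and rank 3011 in the pooled list. It ranked 1564 in replicate 1 and was absent from replicate 2. The intronic candidate at 2911 bp had a signal of 10.1. It was the only pooled candidate of lin-31 found in both libraries, at ranks 4641 in replicate 1 and 19012 in replicate 2. Downstream of lin-31, a replicate 1 peak 8468 bp from the 5' end (rank 21958) overlapped a replicate 2 peak at 8264 bp (rank 19554). Neither was in the pooled list. No pooled candidate lay at the lin-31 promoter, although replicate 2 alone listed peaks there, 721 bp upstream with a signal of 5.07 and rank 9968 and 55 bp upstream at rank 28061.

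The homeodomain factor gene cog-1, which acts in the vulval lineages and in neurons, had 6 candidates (chromosome II 14902493 to 14907533). The strongest was also the one farthest upstream, at 4893 bp, with a signal of 12.1 and rank 5258, and it overlapped candidates of both replicates. Its surroundings had a GC content of 21.4%, the lowest of the 52 candidates, whose median was 38.3%. The other 5 had signals from 7.18 to 10.4, and each was in 1 of the 2 libraries. None of the 6 was at a promoter, and replicate 2 alone listed a peak 18 bp inside cog-1, at rank 25124.

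The LIM homeodomain gene lin-11, which acts in the secondary vulval lineage (chromosome I 10248288 to 10255327, plus strand), had 3 candidates and a best pooled rank of 7662. That candidate and the weakest one lay in coding exons of the neighbouring gene ZC247.2. Within lin-11 there was 1 candidate, in an intron 2874 bp from the 5' end, with a signal of 9.77 and rank 11039. It had a TGACAG match and counterparts at rank 25716 in replicate 1 and 10576 in replicate 2.

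**Figure D2:**
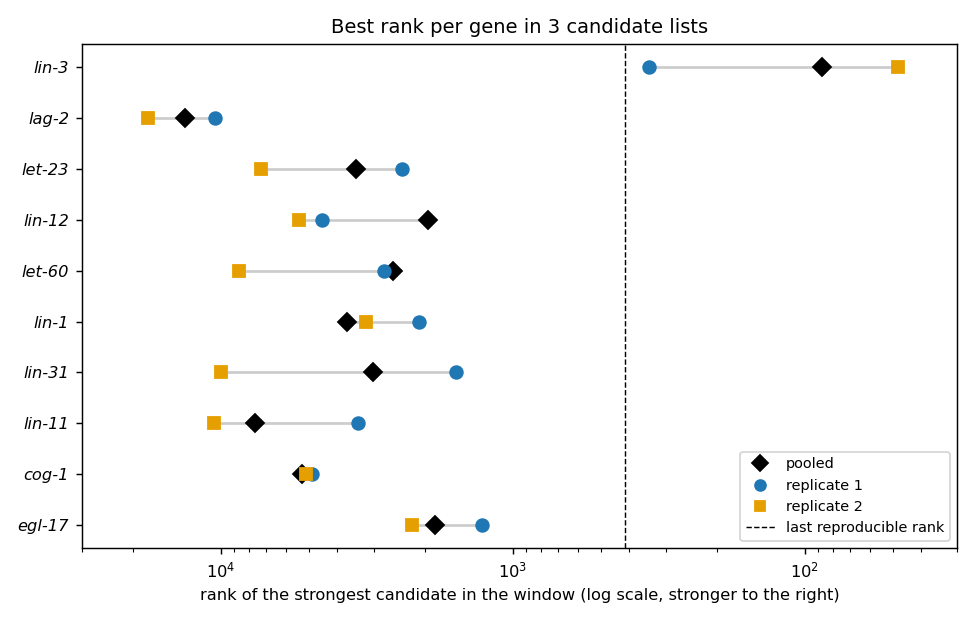
Rank of the strongest candidate in each gene's window (x axis, log scale, stronger to the right) in the pooled list and in each replicate, with genes from ligands at the top to egl-17 at the bottom. The dashed line is rank 414. All 3 ranks of lin-3 are past it, at 87, 342 and 48, and those of the other 9 genes are all short of it.

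The replicates put different sites first. Their strongest candidates overlapped at 1 of the 10 genes, lin-3, and at 16.3% of the 18690 protein-coding genes with a candidate in both lists. At the other 9 genes the strongest sites were 680 bp (let-23) to 11273 bp (cog-1) apart. The best rank was better in replicate 1 at 9 of the 10 genes, against 49.2% of those 18690 genes, and lin-3 was the exception. The median of the 10 best ranks was 2583 in replicate 1 and 6349.5 in replicate 2. Over all genes with a candidate in the list it was 5808 and 5660, with empty windows left out. In the pooled list the median was 3226 for the 10 genes and 5716 for the 18951 genes with a candidate. Windows of all protein-coding genes were shorter (median 12.03 kb, against 16.04 kb for the 10). The pooled median is thus closer to that of replicate 1. Replicate 2 alone put the 10 genes slightly below the median of the genes with a candidate.

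**Figure D3:**
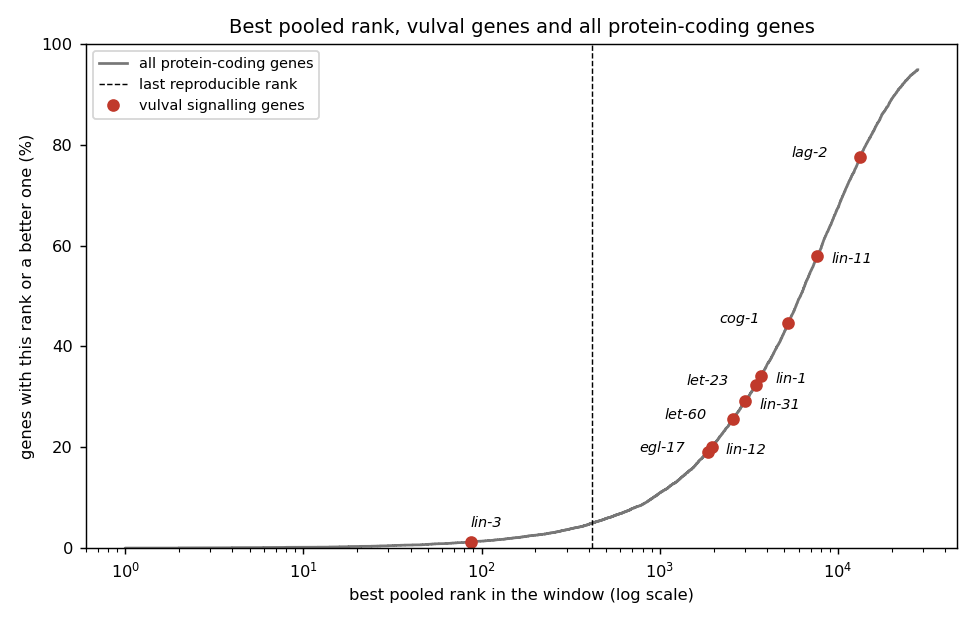
Share of protein-coding genes (y axis, percent) whose best pooled candidate has the rank on the x axis (log scale) or a better one, with the 10 vulval genes as points on that curve. The dashed line is rank 414. Better best ranks than at lin-3 occurred in 1.22% of all windows, and than at lag-2 in 77.6%.

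Of the 52 candidates, 43 had a counterpart in replicate 1 (82.7%, exact 95% interval 69.7 to 91.8) and 24 in replicate 2 (46.2%, 32.2 to 60.5). Over all 28005 pooled candidates these shares were 67.4% and 53.7%. Counterparts in both replicates were found for 17 of the 52 (32.7%, 20.3 to 47.1) and for 30.9% of all. The intervals cover counting only, and candidates of 1 gene share their source. Candidates of the 10 genes were therefore listed more often in replicate 1 and about as often in both, and no difference was tested. At lin-3 4 of 6 candidates were in both, and at lin-12 2 of 9.

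**Figure D4:**
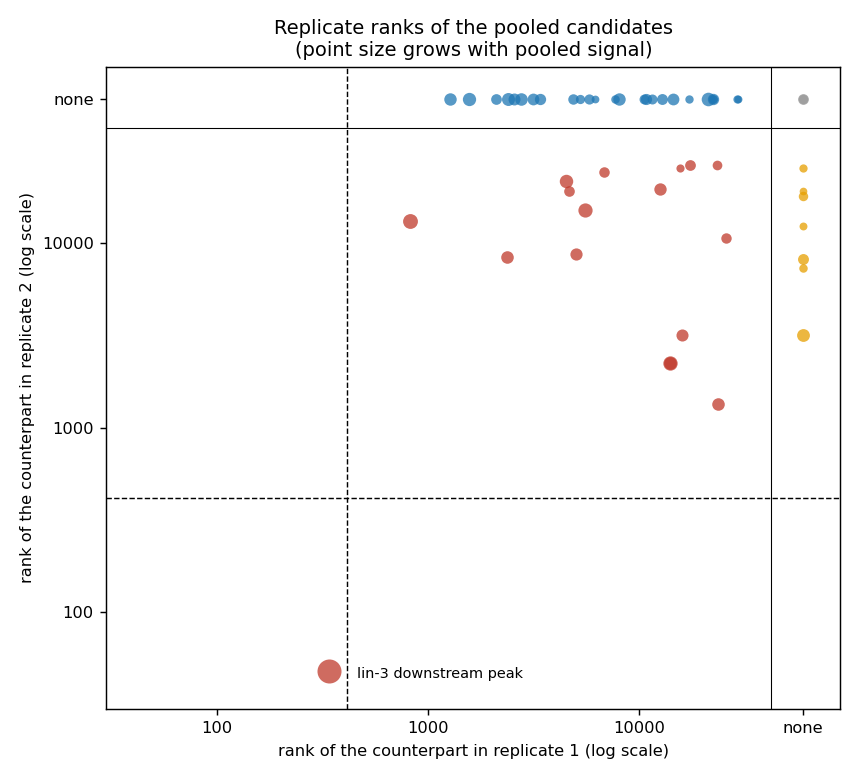
Rank of the overlapping candidate in replicate 1 (x axis) and replicate 2 (y axis), both on log scales, for each of the 52 pooled candidates, with candidates that have no counterpart in a replicate placed at "none". Colours are as in the map of the windows, point size grows with pooled signal, and dashed lines mark rank 414. The lin-3 peak, at ranks 342 and 48, is alone in the corner past both lines.

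The candidates lay somewhat more in introns and less at promoters than the list as a whole. Introns held 22 of 52 (42.3%, against 32.1% of all pooled candidates), intergenic sequence 18 (34.6% against 39.3%), coding exons 9 (17.3% against 23.1%) and UTRs 3 (5.77% against 5.62%). Promoters, from 1000 bp upstream to 200 bp downstream of a transcript's 5' end, held 11 (21.2% against 28.9%), of which 6 belonged to 5 of the 10 genes themselves: lin-3, let-23, let-60, lin-1 and egl-17. No difference was tested. For 27 of the 52 the nearest protein-coding 5' end was that of another gene, and for the other 25 it was the vulval gene's own. Density was 0.26 per kb in the upstream 5000 bp, 0.28 in the genes and 0.34 downstream, beside 0.282, 0.271 and 0.276 per kb over all genes.

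TGACAG lay within 100 bp of the summit, on either strand, in 7 of the 52 candidates (13.5%, exact 95% interval 5.59 to 25.8, against 7.97% of all pooled candidates). They belonged to 7 different genes: lin-3, let-23, lin-1, lin-31, lag-2, lin-11 and egl-17. TGATNNAT, a site of PBC and Hox partners, was in 5 (9.62%, 3.20 to 21.0, against 16.9%), at lin-1, lin-12, egl-17 and cog-1, and in none together with TGACAG. The GA repeat GAGAGA was in 13 (25%, 14 to 38.9, against 14.6%). A match describes the letters near a summit and does not establish a site of binding. Apart from lin-3, the TGACAG candidates had ranks from 3953 to 21476, so the motif was not limited to strong candidates.

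Other genes of the same pathways were counted in 4 lists, of which 78 of 80 names matched the annotation (mdt-23 and lst-3 did not and were not analysed here). Reproducible peaks lay in the windows of 8 of the 78 (10.3%, against 4.94% of all genes). The windows of these pathway genes were longer, with a median of 15.08 kb against 12.03 kb for all genes. The lists were made with earlier results of these data known, and the shares were not tested. EGF and Ras transducers and regulators had 1 of 24, lip-1, which encodes a MAP kinase phosphatase that is switched on by LIN-12 in secondary cells. Its peak lay 3817 bp upstream with a signal of 38.2 and ranked 199 in the pooled list, 335 in replicate 1 and 157 in replicate 2. The Notch pathway list had 1 of 19, dpy-23, for the medium subunit of the AP-2 endocytic adaptor. That peak lay 389 bp upstream with a signal of 59.04 and ranked 70 in the pooled list, 94 in replicate 1 and 63 in replicate 2. Both ranked within the top 414 of each replicate, and for both the nearest protein-coding 5' end was that of the listed gene, with non-coding RNA genes within 500 bp of each summit.

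Genes of vulval competence, the anchor cell and later vulval steps had 2 of 18. At fos-1, a FOS family factor gene needed for anchor cell invasion, peaks 3146 and 2923 bp upstream had signals of 73.9 and 33.7. They shared their best counterparts, at ranks 95 in replicate 1 and 11 in replicate 2. The non-coding RNA gene C10F3.15 lay within 500 bp of both summits. At lin-39, the Hox gene of the vulval precursor cells, a 5' UTR peak had a signal of 42.96 and ranked 98 in replicate 1 and 245 in replicate 2. Synthetic multivulva genes, which keep LIN-3 from being expressed too widely, had 4 of 17: hpl-2, lin-54, lin-53 and lin-9. The hpl-2 and lin-54 peaks were nearer to tasp-1 (61 bp) and to the ribosomal protein gene rpl-12 (64 bp). The lin-53 peak lay 227 bp upstream with a signal of 31.7 and ranked 213 in replicate 1 but 7492 in replicate 2. The lin-9 peak, 144 bp upstream with a signal of 29.3, ranked 442 in replicate 1 and 871 in replicate 2.

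In best pooled rank lin-3 stood next below egl-27, at 86, and next above scm-1, tub-2 and Y71G12A.5, which shared a peak at rank 88. This likeness is of 1 rank in 1 list, from the same pair of libraries.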

How the data were processed

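Per the labels and accompanying notes, the authors deposited narrowPeak lists on build ce11: candidates per replicate, candidates from both alignments pooled, and reproducible peaks (optimal IDR set). The pooled list is labelled as peaks and background that were the input for IDR. Each peak has a signal value that the authors made against a control, a deposited −log10 q value (not used for ranking) and a summit offset. Which aligner, peak caller, IDR threshold and antibody were used, and the read depth, is not stated in the labels or notes. The ce10 lists and the control library were not analysed here.

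Peaks were ranked by signal within a list. Gene models were Ensembl release 115 for WBcel235, the assembly of ce11, and sequence came from the RefSeq copy of WBcel235; no peak passed a chromosome end. Windows, counts and motifs were computed in Python 3.11.15 with numpy 2.4.6, pandas 2.3.3 and scipy 1.17.1, and these steps were tested on simulated data. A counterpart overlapped by at least 1 bp. Locations followed the priority coding exon, UTR, intron, intergenic. No test was run: counts stand beside the same share over all protein-coding genes or all pooled candidates. Shares have exact (Clopper-Pearson) intervals. The text names the 10 genes, pathway genes with a reproducible summit in the window (up to 6 per list), genes nearest to a described summit, and those next to lin-3 in best rank. Genes and lists were chosen with earlier results of these data known. Alternatives were other windows, thresholds, overlaps, motif distances and each replicate alone.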

Additional observations from a re-analysis of the deposited data

How the results depend on the processing

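Across 11 results, 49 values were recomputed with another setting. For 38 of them a count differed by at most 1.5 times, a share lay inside its 95% interval, or the median rank moved by no more than the SD of the replicates' medians. That SD, 2663, came from only 2 medians, 2583 and 6349.5, which are also the values without 1 replicate. It is therefore a wide limit and not an independent one. For each change below the cause was not tested, apart from what the setting itself removes or adds. Genes of the 10 with a reproducible peak numbered 1 in the report, 0 within 2000 bp, 2 within 10000 bp (lin-3 and lin-12) and 0 when a summit went to the nearest 5' end. It was 1, lin-3, without either replicate. Pathway genes numbered 8 of 78 in the report, 5 within 2000 bp, 18 within 10000 bp and 14 in the top 1000 pooled candidates. Of all genes, 11% had a top 1000 candidate in the 5000 bp window. A wider window takes in more peaks at any gene. The share of all genes was not counted at 2000 or 10000 bp. The counts there, of the 10 genes and of pathway genes, therefore stand without a comparison. Pooled candidates numbered 52 in the report and 82 within 10000 bp. The median best rank, 3226 in the report, was 2583 without replicate 2 and 6349.5 without replicate 1. With summits within 100 bp, 69.2% of the 52 candidates had a counterpart in replicate 1 and 19.2% in both. A stricter rule lowers such shares in any set of candidates. The shares over all pooled candidates are not reported here for that rule, and those given for any overlap are no comparison. TGATNNAT was in 21.2% of the 52 within 200 bp of the summit, and a longer stretch takes in more matches at any candidate. The share over all pooled candidates is not reported here for 200 bp, and the share given for 100 bp is no comparison. No paired analysis was possible because there was 1 group. Depth is unknown, so an absent peak may be one not detectable in these libraries.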
